A study of Mus musculus with 6 samples.

Results

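The genes described here are Trp53, which encodes the stress-activated transcription factor p53, and 9 of its direct target genes: Cdkn1a, Mdm2, Ccng1, Bax, Bbc3, Trp53inp1, Phlda3, Eda2r and Zmat3. They were chosen by symbol from a table of 22851 genes. All 10 were found and all 10 passed the filter on low counts, as did 14243 genes in total. RNA was sequenced from primary radial glial cells, progenitors at the wall of the brain ventricles, taken from C57BL/6J pups at postnatal days 0 to 3. The cells were grown in medium with 10% serum and then kept without serum for 6 days to become multiciliated ependymal cells. The groups were 3 wild-type (WT) libraries and 3 libraries from mice with a CRISPR/Cas9 knockout (KO) of Edf1, which encodes a transcriptional coactivator and ribosome-associated protein. The labels call the replicates biological without saying whether they came from separate animals or litters, so p-values measure the spread between these libraries.

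p53 is held at a low level in unstressed cells because Mdm2, itself a p53 target, marks it for degradation. When DNA damage, ribosomal stress or other signals release p53 from this control, the protein accumulates and switches on genes for cell cycle arrest, apoptosis, repair and its own feedback. Its activity is set mainly at the protein level, so that Trp53 mRNA is a poor measure of it and the target genes are commonly read together. In neural progenitors p53 is known for limiting proliferation and for the loss of cells when centrosomes or chromosomes are faulty.

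p53 binds a 20-base element, the p53 response element, made of a pair of 10-base motifs. RefSeq promoter sequences (GRCm38.p6, 250 bases before to 50 bases after each annotated start) were matched for 8 of the 10 genes, in 11 windows. Both strands are covered because the element is its own reverse complement. With the 4 core C and G letters intact and at most 2 mismatches elsewhere, a match was present for 2 of the 8 genes, Cdkn1a and Ccng1, against 0.392% of the 27025 genes with a promoter sequence. The members are listed as p53 targets partly because such elements are known, so these matches are a description and not evidence of binding in these cells. Such elements are the known route by which p53 reaches its targets. The matched stretch is in capitals, and 25 bases on each side in lower case. The Bbc3 stretch has 3 mismatches and does not meet the setting above. A Trp53 stretch with 3 mismatches is not shown.
Cdkn1a: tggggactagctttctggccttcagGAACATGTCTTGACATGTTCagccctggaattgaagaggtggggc
Ccng1: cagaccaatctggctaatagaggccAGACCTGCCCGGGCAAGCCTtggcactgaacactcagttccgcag
Bbc3: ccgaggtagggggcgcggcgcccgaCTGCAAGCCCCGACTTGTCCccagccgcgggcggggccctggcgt

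The Cdkn1a element lies on the plus strand at chr17:29090928-29090947, centred at position -41 relative to the upstream one of the gene's annotated starts, and has 1 mismatch to the consensus. The Ccng1 element lies on the minus strand at chr11:40755462-40755481, centred at position -185, and also has 1 mismatch. The Bbc3 sequence, on the plus strand at chr7:16309486-16309505, has 3 mismatches and is found only when 3 are allowed. At that setting Trp53 also has a match, and 4 of 8 genes do, against 1.63% of all genes with a promoter sequence. None of the 4 sites lies in an annotated exon. For Mdm2, Bax, Phlda3 and Eda2r these letters are not in the windows searched. The p53 elements known for Mdm2 lie in its first intron, outside the window.

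The libraries held 13071766 to 28087006 counts. Edf1 itself had 82.9 ± 2.85 CPM (counts scaled to a common library size and composition) in WT and 11.3 ± 1.72 CPM in KO (mean ± SD, n = 3 each), with no overlap between the groups. Markers of the cell types in the cultures also moved. A gene is called where the quasi-likelihood test of edgeR gave an adjusted p below 0.05, adjusted over every tested gene, and 12.7% of the tested genes were called higher in KO, 14.2% lower and 26.9% in either direction. Over 12 ependymal and multiciliated markers the summed level was 2072 to 2317 CPM in WT and 1155 to 1221 CPM in KO, and 12 of 12 were called lower. Over 12 microglia markers it was 2129 to 2278 CPM in WT and 1425 to 1457 CPM in KO, with 11 called lower. Over 12 fibroblast and mural markers it was 863.5 to 922.7 CPM in WT and 1069 to 1186 CPM in KO. That sum was made up mostly of Acta2 and Tagln, and 9 of 10 tested genes were called higher. Over 12 radial glia and astrocyte markers the sum was 10550 to 11030 CPM in WT and 11470 to 11910 CPM in KO. In that list 3 were called higher and 1 lower, or 33.3% against the 26.9% of all tested genes. Most of the sum was Vim, at a mean of 6273 CPM in WT and 6849 CPM in KO, which was not called. None of these markers was at 0 in all libraries. The 11 neuron markers summed to 255.0 to 329.9 CPM in WT and 274.4 to 290.4 CPM in KO, a sum made up mostly of Map2. Of these, 2 of 7 tested genes, Dcx and Tubb3, were called lower, with Dcx at only 4 to 20 counts per library. Syt1 went the other way, at a log2 fold change of 0.53, and was not called. The 9 oligodendrocyte markers summed to 444.1 to 482.5 CPM in WT and 410.6 to 429.9 CPM in KO. That sum was made up mostly of Cnp, which was the 1 of 7 tested genes called lower. In bulk RNA, a change in the number of cells of a type and a change in RNA per cell cannot be told apart, and the part of cell composition in the results below was not tested.

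Most of the p53 target genes were higher without Edf1, while Trp53 and Mdm2 were not detectably changed. Of the 10 genes, 7 were called higher in KO (Cdkn1a, Ccng1, Bax, Trp53inp1, Phlda3, Eda2r and Zmat3) and 0 were called lower. Over all tested genes 12.7% were called higher, 14.2% lower and 26.9% in either direction. The 7 rises ranged from 1.21-fold for Bax to 1.89-fold for Eda2r. The median log2 fold change of the 10 genes was 0.43, and it was 0.0029 over all tested genes. The 3 KO libraries lay above the 3 WT libraries for 8 of the 10 genes, against 21.3% of tested genes, or 43.3% for separation in either direction.

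**Figure D1:**
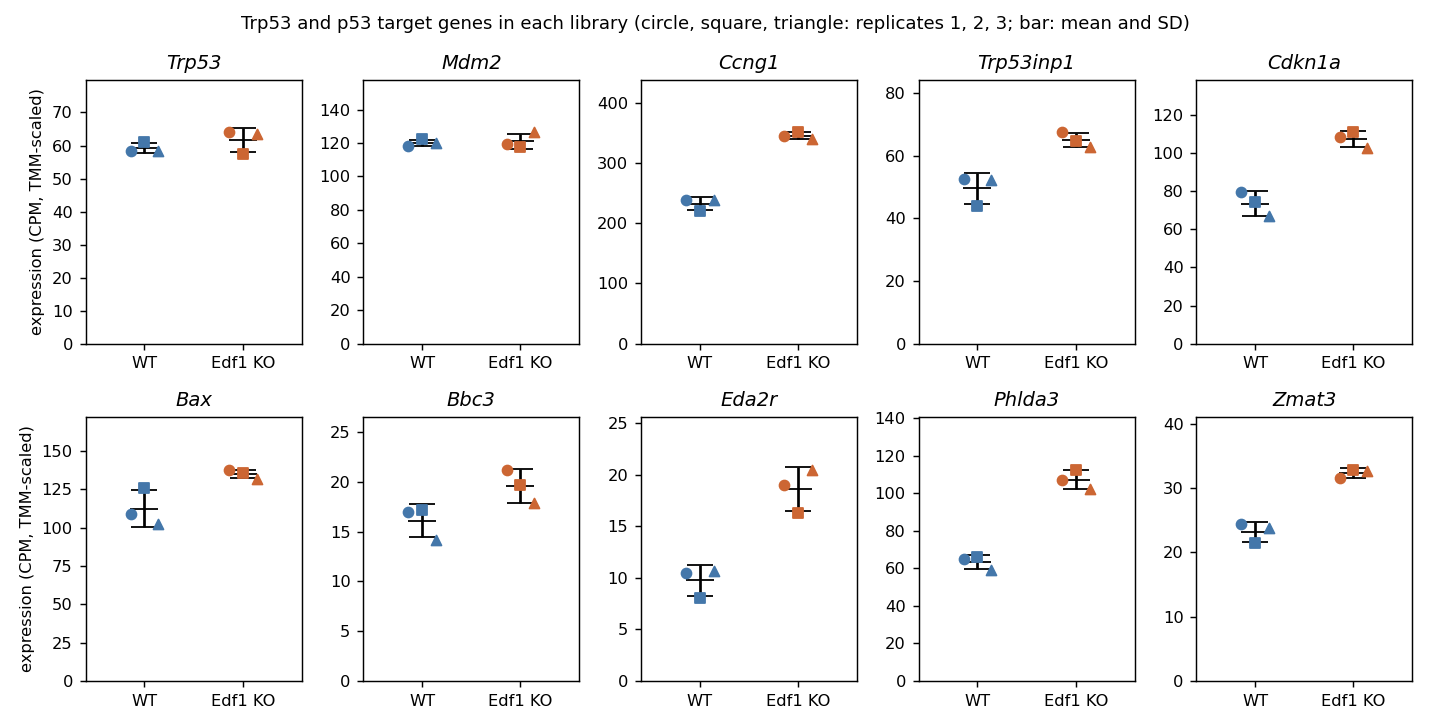
Expression of Trp53 and the 9 p53 target genes in each library, in CPM on an axis that starts at 0, with the 3 WT and 3 Edf1 KO replicates as separate markers and the mean and SD as bars. The KO points lie above the WT points in every panel but those of Trp53 and Mdm2, where they intermix.

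Trp53, on chromosome 11 (69580359-69591873, plus strand, GENCODE M21 on GRCm38), had 58.2, 61.1 and 58.4 CPM in WT replicates 1, 2 and 3. In KO replicates 1, 2 and 3 it had 63.9, 57.4 and 63.6 CPM. The second KO library was the lowest of all 6, and the groups overlapped. The log2 fold change was 0.06 (SE 0.061, edgeR adjusted p = 0.518), with a 95% interval of -0.074 to 0.19. A rise of the size seen in Cdkn1a or Ccng1 lies outside this interval. Of the 31-base stretches in Trp53 transcripts, 10.2% also occur in other genes, of which the pseudogene Trp53-ps shares the most. A small part of the reads could therefore come from or go to a copy.

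Of the feedback genes around p53, Ccng1 and Trp53inp1 were called higher and Mdm2 was not, and the 95% interval of Mdm2 does not reach theirs. Mdm2, the ubiquitin ligase that targets p53, had 118, 122 and 120 CPM in WT and 119, 118 and 126 CPM in KO. These values intermix, and only the third KO library stood slightly apart at the top. Its log2 fold change was 0.014 (SE 0.052, edgeR adjusted p = 0.870), with a 95% interval of -0.099 to 0.13.

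Ccng1, which encodes cyclin G1, a p53-induced partner of protein phosphatase 2A that acts on Mdm2, had the highest CPM of the 10 genes. It stood at 238, 220 and 238 CPM in WT and at 346, 351 and 339 CPM in KO. Every KO library was far above every WT library, and the KO libraries were close to each other. KO exceeded WT by 0.57 on the log2 scale (SE 0.048, edgeR adjusted p = 3.67e-06), or 1.49-fold. Trp53inp1, a stress-induced nuclear protein that promotes p53 activity and autophagy, had 52.6, 44.0 and 52.3 CPM in WT and 67.4, 64.8 and 62.9 CPM in KO. The second WT library, the one with the fewest counts, was the lowest, and the groups did not overlap. Its log2 fold change was 0.38 (SE 0.072, edgeR adjusted p = 0.00182).

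Cdkn1a encodes p21, the inhibitor of cyclin-dependent kinases (CDKs) through which p53 arrests the cell cycle, and its promoter element is shown above. It had 79.6, 74.4 and 66.8 CPM in WT and 109, 111 and 103 CPM in KO. The gap between the highest WT and the lowest KO library was wider than the range within either group. KO exceeded WT by 0.54 on the log2 scale (SE 0.069, edgeR adjusted p = 9.22e-05), or 1.46-fold. The gene lies on chromosome 17 (29090976-29100727, plus strand). Of its 3553 exonic bases, 273 overlap an antisense transcript, AC167363.2. The strand setting of the counting is not given in the sources used here, so reads there cannot be assigned with certainty. Of the 31-base stretches of Cdkn1a, 9.78% occur in other genes.

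In the apoptotic arm, Bax and the receptor gene Eda2r were called higher and Bbc3 was not. Bax, which encodes the protein that permeabilizes the mitochondrial outer membrane, had 109, 126 and 102 CPM in WT and 138, 135 and 132 CPM in KO. The second WT library was the closest to the KO values, and the groups did not overlap. The log2 fold change was 0.27 (SE 0.070, edgeR adjusted p = 0.0130). Leaving out WT replicate 1 (edgeR adjusted p = 0.0512), KO replicate 1 (0.0625) or KO replicate 2 (0.0520) ended this call. Of the Bax exons, 192 bases are shared with Gm45808, which runs on the same strand.

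Bbc3, which encodes PUMA, a BH3-only activator of Bax, had 17.0, 17.2 and 14.2 CPM in WT and 21.2, 19.7 and 17.8 CPM in KO. The groups did not overlap, but the third KO library was close to the top WT library. The log2 fold change was 0.28 (SE 0.10), with a 95% interval of 0.059 to 0.50, and the edgeR adjusted p of 0.0594 missed the threshold. It passed when WT replicate 2 (0.0238) or KO replicate 3 (0.0498) was left out, and the adjusted p-values of all alternatives ran from 0.0238 to 0.208.

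Eda2r, a receptor of the tumour necrosis factor family that binds ectodysplasin A2, had the largest change of the 10 genes. It had 10.5, 8.003 and 10.7 CPM in WT and 18.997, 16.3 and 20.5 CPM in KO, from 103 to 578 counts per library. The second library was the lowest in both groups, and the groups were well apart. This is a log2 fold change of 0.92 (SE 0.12, edgeR adjusted p = 0.000133). Of all tested genes, 1.73% had a larger value. For the other called members this share ran from 2.92% (Phlda3) to 16% (Bax).

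The remaining 2 targets act outside arrest and cell death proper. Phlda3 encodes a pleckstrin homology protein that competes with Akt for membrane lipids and so dampens survival signalling. Its level was 64.8, 66.0 and 59.1 CPM in WT and 107, 113 and 102 CPM in KO. The groups were separated by far more than their ranges. The log2 fold change of 0.76 (SE 0.063, edgeR adjusted p = 3.13e-06) corresponds to 1.70-fold. Zmat3, a zinc finger protein that binds RNA and acts in splicing and RNA stability, had 24.4, 21.4 and 23.7 CPM in WT and 31.5, 32.8 and 32.6 CPM in KO. The KO libraries were nearly level and all above WT. Its log2 fold change was 0.47 (SE 0.076, edgeR adjusted p = 0.000573).

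**Figure D2:**
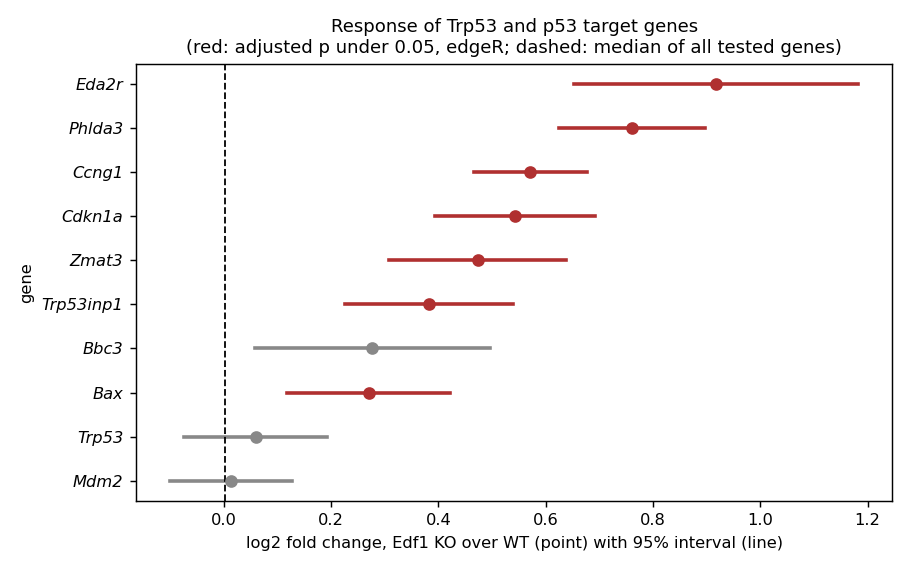
Log2 fold change of Edf1 KO over WT for Trp53 and the 9 targets (points) with 95% intervals from the edgeR fit (lines), red where the adjusted p-value was under 0.05, and with the median of all tested genes as a dashed line. Eda2r (0.92) and Phlda3 (0.76) are at the top, and the intervals of Trp53 and Mdm2 include 0.

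The calls of Cdkn1a, Ccng1, Trp53inp1, Phlda3, Eda2r and Zmat3 held in all 13 alternatives tried, which included leaving out each library in turn. Taking for each library the median distance of the 9 targets from their WT means in log2 CPM, the WT libraries were at 0.077, 0.020 and -0.0020 and the KO libraries at 0.45, 0.50 and 0.48. The 3 KO libraries carried the rise to a like extent. They differed from each other in single genes: the third KO library was the lowest of the KO group for Cdkn1a, Ccng1, Bax, Bbc3, Trp53inp1 and Phlda3 but the highest for Eda2r and Mdm2.

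Levels were compared between genes as CPM per kilobase of merged exons. In WT, Bax (71.2 ± 7.69) and Ccng1 (66.1 ± 3.07) were the highest and did not differ beyond their SDs (n = 3 each). Phlda3 (40.6 ± 2.34), Mdm2 (23.6 ± 0.398), Cdkn1a (20.7 ± 1.81) and Trp53 (14.7 ± 0.405) followed in that order, each apart from the next by more than the 2 SDs together. Trp53inp1 (7.66 ± 0.753) and Bbc3 (7.58 ± 0.790) were level with each other. Zmat3 (2.03 ± 0.140) and Eda2r (1.65 ± 0.256) were the lowest and did not differ beyond their SDs. In KO the order of the means changed at 3 places. Ccng1 (98.3 ± 1.61) was above Bax (85.6 ± 1.80), and Cdkn1a (30.2 ± 1.20) was above Mdm2 (23.8 ± 0.898). Eda2r (3.16 ± 0.356) reached the level of Zmat3 (2.83 ± 0.0636), from which it did not differ beyond the SDs. Of these pairs, only Cdkn1a and Mdm2 differed beyond their SDs in both WT and KO. Merged exons overstate the length of the transcript actually made where a gene has several isoforms, as Mdm2 with 9 annotated transcripts does.

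In a wider list of 48 p53 targets, 47 were in the table and 46 were tested. In KO 22 were called higher (47.8%, against 12.7% of all tested genes) and 2 lower (4.35%, against 14.2%), and 22 were not called. The median log2 fold change was 0.23. Without KO replicate 1 the count of called genes was 15, all of them higher. The list was drawn from general knowledge of p53 targets, many of which also respond to other factors, with earlier results of these data known, and is not independent support for the values above.

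Psrc1 and Pmaip1 were among the largest rises of the wider list. Psrc1, which encodes a spindle and microtubule protein, had 22.0, 15.7 and 23.5 CPM in WT and 47.6, 47.9 and 43.5 CPM in KO, a log2 fold change of 1.16 (SE 0.11, edgeR adjusted p = 1.27e-05). Pmaip1, which encodes the BH3-only protein NOXA, had 5.39, 2.56 and 4.38 CPM in WT and 8.42, 10.1 and 9.91 CPM in KO, a log2 fold change of 1.15 (SE 0.19, edgeR adjusted p = 0.000893). Both genes were separated between the groups, with WT replicate 2 the lowest library.

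Smaller rises were called for the death receptor genes Fas (0.31) and Tnfrsf10b (0.45), the DNA repair gene Ercc5 (0.40), the nuclease gene Aen (0.40), the antiproliferative gene Btg2 (0.44) and the damage-response gene Gadd45a (0.40), given as log2 fold changes. Other genes of the list were not called, among them Sesn1 (0.017), Ppm1d (0.047) and Ddb2 (0.090). The genes called lower were Pidd1, a scaffold for caspase 2, at -0.34 (SE 0.090, edgeR adjusted p = 0.0144), and Dglucy at -0.22 (SE 0.069, edgeR adjusted p = 0.0337). The count of Dglucy is uncertain because the strand setting of the counting is not given. The genes of this paragraph other than Pidd1 and Dglucy were chosen after their values were seen.

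**Figure D3:**
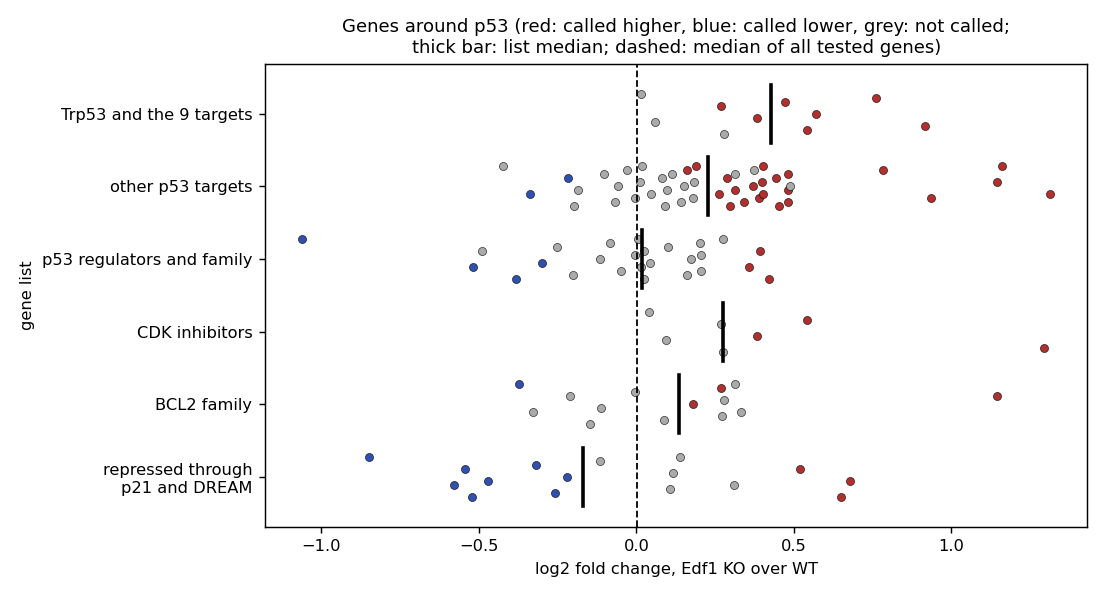
Log2 fold change of Edf1 KO over WT for each tested gene of 6 lists around p53 (points, red called higher, blue called lower, grey not called), with the list median as a thick bar and the median of all tested genes as a dashed line. The medians are 0.43 for Trp53 and the 9 targets, 0.23 for other p53 targets and 0.019 for regulators, and -0.17 for genes repressed through p21 and DREAM.

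Regulators and relatives of p53 were not shifted in one direction. Of 26 genes, 3 were called higher and 4 lower, a share of 26.9% that equals the background of 26.9%. The median log2 fold change was 0.019. Mdm4, the Mdm2 relative that inhibits p53, had 54.1, 37.0 and 47.9 CPM in WT and 65.8, 59.4 and 62.7 CPM in KO, a log2 fold change of 0.42 (SE 0.10, edgeR adjusted p = 0.0105). Of its 31-base stretches, 13.8% occur in other genes, of which its pseudogene shares the most. The checkpoint kinase gene Chek1 rose by 0.39 (SE 0.12) and Ppp1r13b, a p53 cofactor, by 0.36 (SE 0.096).

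Trp73, the p53 relative that acts in the multiciliated cell programme, fell from 22.7 ± 0.943 to 10.9 ± 0.557 CPM (n = 3), a log2 fold change of -1.06 (SE 0.086, edgeR adjusted p = 2.75e-06). It fell beside the ependymal markers given above. Trp73os overlaps 280 of its exonic bases on the opposite strand. Wrap53, the neighbour of Trp53 that starts on the opposite strand, had 28.5, 29.8 and 27.1 CPM in WT and 19.5, 19.6 and 20.4 CPM in KO. Its log2 fold change was -0.52 (SE 0.076, edgeR adjusted p = 0.000268), while that of Trp53 did not pass, and the difference between these genes was not tested. In the annotation used the exons of Wrap53 and Trp53 do not overlap. Atr, the kinase that signals stalled replication, had a log2 fold change of -0.38 (SE 0.073, edgeR adjusted p = 0.00194), and 1188 of its exonic bases overlap genes on the opposite strand.

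Among the CDK inhibitors, Cdkn1a was 1 of 3 genes called higher of 7 (42.9%, against 12.7% of all tested genes), with 0 called lower. Cdkn1c, which encodes p57, had 1.55 to 2.03 CPM in WT and 3.79 to 4.86 CPM in KO, a log2 fold change of 1.30 (SE 0.20, edgeR adjusted p = 0.000458), and 625 of its exonic bases overlap the antisense gene Gm44732. Cdkn2b, which encodes p15, rose by 0.38 (SE 0.091, edgeR adjusted p = 0.00786). Cdkn1b, the gene of p27, had a log2 fold change of 0.039 and did not pass; it was named after its value was seen. When WT replicate 2 was left out, 5 of the 7 genes passed.

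In the BCL2 family, the list that holds Bax and Bbc3, 3 of 14 tested genes were called higher (Pmaip1, Bax and Mcl1) and 1 lower (Bcl2a1b), a share of 28.6% that is near the 26.9% of all tested genes. The pro-survival gene Mcl1 rose by 0.18 (SE 0.051, edgeR adjusted p = 0.0212), and the pro-survival gene Bcl2l1, named after its value was seen, was at -0.0052 and was not called. Of the 31-base stretches in Bcl2a1b, 88.8% occur in other genes, so its log2 fold change of -0.37 cannot be assigned to this copy. Without KO replicate 1, 2 genes of the family were called.

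Genes that p21 is known to repress through the DREAM complex, which silences cell cycle genes in resting cells, were divided. Of 16 genes, 8 were called lower (50%, against 14.2% of all tested genes) and 3 higher (18.7%, against 12.7%), with a median log2 fold change of -0.17. The 8 genes fell beside the ependymal and multiciliated markers, of which 12 of 12 were called lower. Whether p21 had a part in these changes was not tested. Nek2, a centrosomal kinase, fell from 45.6 ± 2.75 to 25.4 ± 1.30 CPM (n = 3), a log2 fold change of -0.85 (SE 0.074, edgeR adjusted p = 4.81e-06). Aurka, a mitotic kinase, fell by 0.58 (SE 0.11), and Cks2, a CDK subunit, by 0.54 (SE 0.079) on the log2 scale. Ccna2 (cyclin A2), Birc5 (survivin) and Kif23 (a cytokinesis motor) went the other way, at 0.68 (SE 0.077), 0.65 (SE 0.12) and 0.52 (SE 0.085). Exons of Nek2 and Ccna2 overlap those of genes on the opposite strand, and 31.7% of the 31-base stretches of Cks2 occur in other genes.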

How the data were processed

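The authors deposited whole-number read counts per gene symbol for 6 libraries, with 1 column per library. Per the submitters' processing notes, FastQC 0.11.2, cutadapt 1.11, HISAT2 2.1.0 and the GRCm38 build were used. The counting program, annotation, strand setting and rule for multiply mapped reads are not given in the sources used here. Counts were tested in R 4.3.3 with edgeR 4.0.16: filterByExpr (14243 of 22851 genes kept), TMM factors (0.985 to 1.01), and the quasi-likelihood test of Edf1 KO against WT without covariates. P-values were adjusted by Benjamini-Hochberg over the 14243 genes, with 0.05 as threshold. SEs were derived from the log2 fold change and its F statistic. DESeq2 1.42.0 and limma 3.58.1 (voom) were alternatives. Fits were also run on simulated counts, with fewer changed genes than were called here and each change larger than that of any member. That run does not test calls of the size reported here.

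The genes named are Edf1, the members, and from each other list up to 3 called genes with the largest rise and 3 with the largest fall, and the 3 nearest profiles of Trp53 and Cdkn1a. Further genes were picked with their values in view. Marker lists are given as sums and counts, and 1 gene that this rule names is not reported here. Members and lists were chosen with earlier results of these data known. The response element search was planned for 2500 bases either side of each start. No genome sequence was used here, so it ran on RefSeq promoter windows, which was decided after the files were seen. Gene positions and exon overlaps come from GENCODE M21.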

Additional observations from a re-analysis of the deposited data

How the results depend on the processing

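Of 13 alternative fits, the number of the 10 genes called stayed at 6 to 8 and none was called lower. Over all genes 2658 to 4340 were called, the most without WT replicate 2. This library differed most from its group, with a chi-square per degree of freedom of 8.70 and 9.89. Other pairs within a group had 3.04 to 4.38. Without it the median log2 fold change was 0.388 for the 10 genes (0.428 with all libraries). For the wider target list it was 0.183 (0.227 with all libraries). Counts of called genes changed by over 1.5 times in 3 lists. In the BCL2 family 4 of 14 tested genes were called, against 8 of 16 without the low-count filter. With the replicate block (replicate number in the model) 7 of 14 were called, and 2 to 5 when 1 library was left out. Leaving out 1 library gave 3 to 5 CDK inhibitors (3 with all libraries) and 15 to 24 of the wider target list (24 with all libraries). With at most 3 mismatches 4 genes had a response element match, in place of 2. Mdm2 had no stable direction, at -0.0152 without KO replicate 3 and up to 0.0343 without KO replicate 2. Bbc3 also passed without the low-count filter (adjusted p-value 0.0495 by edgeR) and with the block (0.0267). The cause was not tested. The block called 8 of the 10 genes and 4065 genes in all. The deviations of same-numbered libraries from their group means correlated at 0.0693, 0.0604 and 0.0372, so no pairing was assumed, although each library correlated best with its own number. The windows of 1000 and 5000 bases for the response element were not run, as no genome sequence was used. With 3 libraries a group, the 95% intervals allow log2 changes of up to 0.19 in Trp53 and 0.13 in Mdm2.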

Other observations

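The tested genes whose centred log2 CPM over the 6 libraries lay nearest to that of Trp53 were Pdgfa, Tmem248 and Sh3kbp1, with root mean square differences of 0.0164, 0.0237 and 0.0242. None of these was called by edgeR (adjusted p-values 0.674, 0.493 and 0.579). Nearest to Cdkn1a were Rab3d, a small GTPase of secretory vesicles, Septin4, a cytoskeletal GTPase, and Txnip, an inhibitor of thioredoxin, with differences of 0.0312, 0.0424 and 0.0429. Their log2 fold changes were 0.52 (SE 0.11), 0.53 (SE 0.066) and 0.50 (SE 0.059), with adjusted p-values of 0.00335, 8.45e-05 and 5.74e-05 by edgeR. The likeness is a description over 6 libraries, and these fold changes and adjusted p-values follow from the choice by profile. Exons of Pdgfa, Tmem248 and Txnip overlap those of genes on the opposite strand. Septin4 was not found by this symbol in GENCODE M21, so its overlaps were not checked.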
